A study of Mus musculus with 10 samples.

Results

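Reads of mature miRNAs that end in 1 to 3 added T bases were measured in small RNA libraries of embryonic mouse cortex. The miRNAs described here are the 180 of 1432 mature names in the table that had 100 or more reads in each of the 10 libraries, with all 3′ suffixes summed. They comprised 91 names of the 3p arm, 86 names of the 5p arm and 3 names with no arm, miR-451a, miR-484 and miR-1983. The measure is the T-tailed share, the reads with suffix T, TT or TTT as a percentage of all reads of that name. Sequencing reads are written in DNA letters, so a T stands for a U in the RNA. Members were chosen by their total read counts, for which no test is given, and not by the T-tailed share. Just inside the read minimum were miR-145a-5p, miR-666-3p and miR-31-5p, whose lowest libraries held 100, 101 and 102 reads. Just outside were miR-666-5p, miR-28a-3p and miR-672-5p, with 99, 98 and 97 reads.

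The libraries came from E13.5 mouse cortex of 2 lines, in which Dicer or DGCR8 was conditionally knocked out. Dicer cuts the precursor hairpin to its mature length, and DGCR8 helps Drosha to free that hairpin in the nucleus. Each of the 5 groups held 2 mice. The Dicer line gave wild types (Dicer WT) and knock-outs (Dicer KO), and the DGCR8 line wild types (DGCR8 WT), heterozygotes (DGCR8 HET) and knock-outs (DGCR8 KO). The driver of the deletion and the cells it acts in were not given in the sources used here. In such bulk tissue, fewer cells of a type and less RNA per cell cannot be told apart.

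Uridylation is the addition of U to an RNA 3′ end by terminal uridylyl transferases, chiefly TUT4 and TUT7 in mammals. A precursor hairpin ends with the 3p arm, so a U added to the precursor stays on the 3p miRNA, while the 3′ end of a 5p miRNA first exists after Dicer has cut. In let-7 biology a single added U helps Dicer process many precursors, and the oligo-U tail added with LIN28 marks them for decay. An extra U can also be part of the gene, when Drosha or Dicer cuts 1 base further along the hairpin.

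The deposited table does not say whether an added T matches the hairpin, so the hairpin base after each mature 3′ end was read from RefSeq (GRCm38.p6). RefSeq held a mature sequence for 158 members and a following hairpin base for 146. A U followed in 18 of the 3p and 32 of the 5p members, and another base followed in 53 and 34. For 3 members of each arm the gene copies differed, and for 17 of each arm no following base was found. The miRNAs below carry the contrasts between relatives, and they were picked for display after their values had been seen. Capitals mark the seed, bases 2 to 8.
miR-17-5p: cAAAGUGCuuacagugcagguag
miR-106b-5p: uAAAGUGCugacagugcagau
miR-26a-5p: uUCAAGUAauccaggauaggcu
miR-26b-5p: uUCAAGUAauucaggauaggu
miR-30a-5p: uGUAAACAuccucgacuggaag
miR-30c-5p: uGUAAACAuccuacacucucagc
miR-148a-3p: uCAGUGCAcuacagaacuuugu
miR-148b-3p: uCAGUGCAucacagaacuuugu
miR-92a-3p: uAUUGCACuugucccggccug
miR-92b-3p: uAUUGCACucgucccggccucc
miR-19b-3p: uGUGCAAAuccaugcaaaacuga
miR-9-3p: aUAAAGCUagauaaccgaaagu
miR-186-5p: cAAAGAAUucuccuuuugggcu

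The 3′ ends of the same miRNAs show which base the hairpin offers next. The last 8 mature bases are in lower case and up to 6 following hairpin bases are in capitals. Where a miRNA has several gene copies, the chromosome of each copy shown is given, and copies that differ in the first following base are all shown. For miR-26a-5p, miR-30c-5p and miR-9-3p only the named copy is shown. Their other copies have the same first following base but differ further on.
miR-17-5p: gcagguagUGAUGU
miR-106b-5p: gugcagauAGUGGU
miR-26a-5p, chromosome 9: gauaggcuGUGCAG
miR-26b-5p: ggauagguUGUGGU
miR-30a-5p: acuggaagCUGUGA
miR-30c-5p, chromosome 1: cucucagcUGUGAA
miR-148a-3p: aacuuuguCUCUAG
miR-148b-3p: aacuuuguCUCGAA
miR-92a-3p, chromosome 14: ccggccugUUGAGU
miR-92a-3p, chromosome X: ccggccugAGGAAG
miR-92b-3p: cggccuccGGCCCC
miR-19b-3p, chromosome 14: aaaacugaCUGUGG
miR-19b-3p, chromosome X: aaaacugaUUGUGG
miR-9-3p, chromosome 3: ccgaaaguAAAAAU
miR-186-5p: uuugggcuUUCUCA

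On the GRCm38.p6 build, the mature miR-26b-5p lies at chr1:74394324-74394344 on the plus strand, and miR-148b-3p at chr15:103285185-103285206 on the plus strand. The copy of miR-92a-3p in the miR-17-92 cluster lies at chr14:115044476-115044496 on the plus strand, downstream of miR-19b-3p at chr14:115044358-115044380. The other copy of miR-92a-3p lies at chrX:52741854-52741874 on the minus strand. Reads of identical mature sequences cannot be assigned to a copy, and how reads that match several miRNAs were counted is not given in the sources used here.

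Libraries held 800623 to 4486774 miRNA reads, and the members took 98.2 to 98.8% of them. The markers set for cortex were present, with the neural progenitor miRNA miR-9-5p at 7.88 to 15.6% of miRNA reads and the neuronal miR-124-3p at 0.0743 to 0.331%. Markers of vessel and blood stood apart in the Dicer line, where 13 detected names together took 1.27 and 1.02% of the reads of Dicer WT against 3.35 and 3.93% in Dicer KO. In the DGCR8 line they took 0.607 and 0.605% in wild type, 0.598 and 0.967% in heterozygotes and 1.07 and 0.962% in knock-outs. The choroid plexus list took 0.329 and 0.916% in Dicer WT against 0.779 and 2.03% in Dicer KO, and the mesenchyme list, with no member, 0.0411 and 0.0265% against 0.0803 and 0.137%. The cortex list took 23.1 and 25.6% against 15.6 and 13.6% in the Dicer line, and 22.6 and 24.2% in DGCR8 WT against 17.8 and 17.7% in DGCR8 KO. Within it miR-9-5p and miR-92b-3p were lower in both knock-outs, and miR-128-3p was lower in DGCR8 KO and overlapped in the Dicer line. miR-124-3p went the other way. It took 0.0743 and 0.0778% in Dicer WT against 0.160 and 0.0939% in Dicer KO, and 0.204 and 0.178% in DGCR8 WT against 0.331 and 0.288% in DGCR8 KO. The part of these levels in the T-tailed shares was not tested.

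T-tailed reads were a large part of the miRNA output, at 20.8 to 26.3% of the members' reads in a library. Most of them came from few miRNAs. miR-92a-3p, of the growth-linked miR-17-92 cluster, supplied 38.8 to 55.3% of a library's T-tailed reads, and together with miR-181a-5p, miR-30c-5p, miR-181c-5p and miR-181b-5p it supplied 68 to 76%. Without miR-92a-3p the T-tailed share of the remaining member reads was 12.6 to 15.2%. A single T made up 83.2 to 85.9% of T-tailed reads, TT 10.7 to 12.7% and TTT 3.35 to 4.39%.

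Between miRNAs the T-tailed share ran from 0 to 93.4%, as the median of the 10 libraries, and the middle member stood at 7.02%. It was above 50% in 20 members, above 10% in 80 and below 1% in 35. The other added bases were rarer, with a member median of 2.31 to 3.39% for A and at most 0.108% for C and for G. The blood miRNA miR-486-5p, made in red cell precursors, lay at the low end with 5 T-tailed reads over the 10 libraries, although its lowest library held 5019 reads.

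The arms differed in level and in their relation to the following hairpin base. The median T-tailed share of the 3p members exceeded that of the 5p members in 10 of 10 libraries, by 4.13 ± 0.860 percentage points (SD over 10 libraries). Among the 3p members the following base made little difference to the median, which was 7.96% where a U followed and 8.76% where another base did. By base it was 7.66% before A, 8.69% before C and 8.76% before G. Among the 5p members the median was 17.0% where a U followed and 1.55% where another base did, with 2.37% before A, 0.964% before C and 2.43% before G. Where no templated T was possible at the first position, the 3p median thus lay above the 5p median by 7.39 ± 1.22 percentage points (SD over 10 libraries). These shares are descriptions over members that share libraries and gene families, so no test is given.

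**Figure D1:**
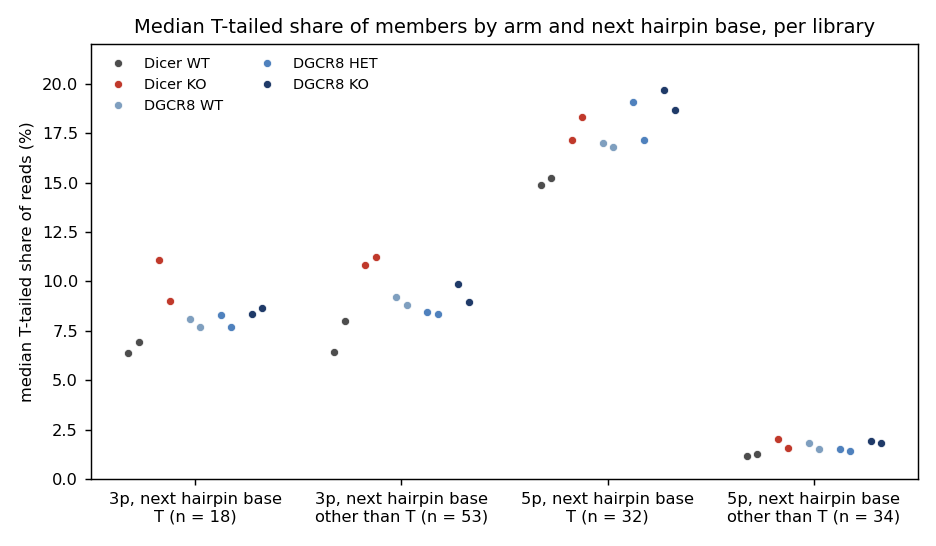
Each point is 1 library, and its height is the median T-tailed share in percent over the members of an arm, split by whether the following hairpin base is T (U in RNA). The 5p members that a T follows lie between 14.9 and 19.7% and the other 5p members between 1.20 and 2.02%, while the 3p classes overlap.

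The plot of class medians by library shows that the order of the classes held in each of the 10 libraries for the 5p arm. In the 3p members that another base follows, the library medians were 6.42 and 7.99% in Dicer WT against 10.9 and 11.3% in Dicer KO. They were 9.22 and 8.79% in DGCR8 WT, 8.48 and 8.33% in DGCR8 HET, and 9.88 and 8.95% in DGCR8 KO. Both Dicer KO libraries were thus above the other 8. In the 5p members that another base follows, Dicer WT gave 1.20 and 1.27%, Dicer KO 2.02 and 1.56%, DGCR8 WT 1.86 and 1.56%, DGCR8 HET 1.54 and 1.45%, and DGCR8 KO 1.95 and 1.85%.

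Both arms of 24 hairpins were members, which sets the arms side by side within a gene. The 3p arm had the higher share in all 10 libraries for 9 hairpins, the 5p arm for 10, and neither arm was higher throughout for 5. Where a U follows the 5p end, the 5p arm was higher in all libraries for 7 of 9 hairpins and the 3p arm for 1. Where another base follows, the 3p arm was higher for 6 of 10 and the 5p arm for none. Of the other 4, the order varied in 3, and in miR-350 the 3p arm was higher in 4 libraries and both arms were at 0 in the rest. Among the 6, a U follows the 3p end of miR-30a and of miR-106b. Where U follows neither end, the 3p arm was higher in all libraries for 4 of 8 hairpins and the 5p arm for 0. In the miR-130b hairpin, with neither end followed by U, the 3p arm had 24.5 to 33.0% and the 5p arm 0.429 to 0.770%. In the miR-17 hairpin the 5p arm, followed by U, had 45.4 to 61.4% and the 3p arm 4.98 to 14.6%.

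The 5 hairpins with most reads covered both orders. miR-30a and miR-30e had the higher share on the 3p arm in every library, with medians of 3% against 0.262% and 1.74% against 0.0615%. A U follows the 3p end of miR-30a and a G that of miR-30e. In miR-99b the 3p arm was also higher, at a median of 26.3% against 7.24%. The 5p arm was higher throughout in miR-181c, with 78.4% against 3.30%. In miR-9 the order changed with genotype, since the 5p arm was higher in 8 libraries and the 3p arm in the 2 Dicer KO libraries.

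Among 3p members the highest wild-type shares belonged to miR-494-3p, miR-6944-3p, miR-363-3p, miR-148b-3p, miR-488-3p, miR-92a-3p, miR-652-3p, miR-322-3p, miR-24-3p and miR-667-3p. Their means over the 4 wild-type libraries fell from 89.8% for miR-494-3p to 41.8% for miR-667-3p. Of these, miR-494-3p has a run of U after its end and miR-92a-3p has U in 1 of 2 gene copies. The following base is not known for miR-6944-3p, listed here among miRNAs made without DGCR8. It is not U for the other 7. Neighbours in that order lay within their spread, as miR-148b-3p at 71.4 ± 4.28%, miR-488-3p at 70.7 ± 4.39% and miR-652-3p at 67.5 ± 3.66% show (SD, n = 4 libraries).

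The 5 highest 5p members were miR-30c-5p, miR-7a-5p, miR-330-5p, miR-26b-5p and miR-139-5p, with wild-type means of 93.6, 86.5, 84.6, 84.3 and 79.8%. A U follows the mature end in all 5. miR-7a-5p, known for binding the circular RNA Cdr1as, had 86.1% in its shallowest library, where 122 reads gave a Wilson 95% interval of 78.8 to 91.1%. The shallowest library of miR-30c-5p held 17016 reads and gave an interval of 92.6 to 93.4%. Such intervals cover counting error only, since the reads carry no molecular identifiers.

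Relatives with 1 shared seed could lie far apart. In the miR-26 pair, whose genes sit in introns of Ctdsp phosphatase genes, miR-26b-5p had 81.3 to 85.8% and miR-26a-5p 7.08 to 10.3% over the 10 libraries. U follows miR-26b-5p and G follows both copies of miR-26a-5p. In the miR-30 family, miR-30c-5p had 91.9 to 94.0%, miR-30a-5p 0.189 to 0.343% and miR-30e-5p 0.0345 to 0.106%. U follows the first and C the others.

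The miR-17 seed gave the same split. The library medians were 50.3% for miR-17-5p, 34.8% for miR-20a-5p and 36.0% for miR-93-5p, which U follows. miR-106b-5p, which A follows, had a median of 3.32% and a highest library of 5.05%. The miR-181 members, in which 1 or more copies have U next or the base is not known, had medians of 22.7% for miR-181a-5p, 50.5% for miR-181b-5p, 78.4% for miR-181c-5p and 50.7% for miR-181d-5p.

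On the 3p arm some relatives differed where U followed none of them. miR-148b-3p had 66.1 to 77.0% and miR-148a-3p 2.11 to 4.62%, although both mature forms end in the same 8 bases and C follows both. miR-130b-3p had 24.5 to 33.0%, miR-130a-3p 6.42 to 16% and miR-301a-3p 1.49 to 2.53%. C follows the first 2 and A the last. Among the miR-25 seed, miR-92a-3p had 64.8 to 71.3%, miR-25-3p 2.42 to 4.61% and miR-92b-3p a median of 8.76%. There the next base did differ. U follows the chromosome 14 copy of miR-92a-3p and A its chromosome X copy, C follows miR-25-3p and G miR-92b-3p. A further 3p pair, miR-101a-3p and miR-101b-3p, had medians of 28.1 and 8.19%, with G next in both. Their annotated ends are not like for like, since the mature forms are 21 bases ending in A and 19 bases ending in U.

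**Figure D2:**
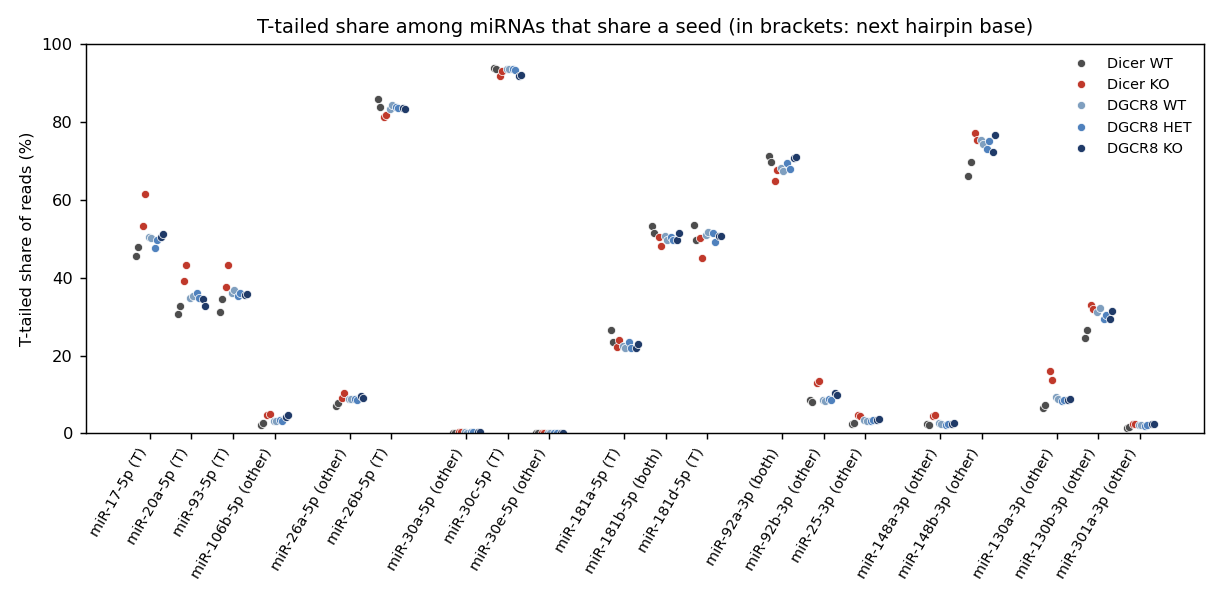
Each point is the T-tailed share in percent of 1 miRNA in 1 library, with relatives that share a seed side by side, colours for the 5 groups and the following hairpin base in brackets. miR-26b-5p and miR-30c-5p stand above 80% and miR-26a-5p and miR-30a-5p near the bottom, in all 10 libraries.

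The plot of relatives by seed shows miR-26b-5p, miR-30c-5p and miR-148b-3p apart from their relatives in every library, whatever the genotype. Tail length also differed by arm. Among 82 members of the 3p and 5p arms with 50 or more T-tailed reads in each library, the median share of T-tailed reads with TT or TTT was 8.55 to 10.8% in 3p members and 4.02 to 6.21% in 5p members. Where a base other than U follows, the order was the opposite, with 3.60 to 5.88% in 27 members of the 3p arm and 5.88 to 11.2% in 9 of the 5p arm.

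A first added base that matches the hairpin could be followed by T. This was looked at in members whose next hairpin base is not U and whose second is not U. The share with T after 1 such matching base was set beside the share with T directly on the mature end. Whether the matching base was read from the gene or added by an enzyme cannot be told from the suffix. With 50 or more reads of each form in each library, 13 members could be compared, and the extended form carried T more often in all 10 libraries in 12, with medians of 25.6% against 4.51%. miR-9-3p had a median of 14.1% on the extended form and 1.01% on the mature end. With a minimum of 20 reads the extended form was higher throughout in 14 of 23 members, and the 3p members split, 7 with the extended and 5 with the plain form higher in all 10 libraries. The comparison was chosen after seeing the values, and the read minimum decides the picture for the 3p arm.

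The Dicer comparison asked how the T-tailed share changes where the enzyme that cuts the precursor hairpin is lost. Each of the 296 names with 10 or more reads in each library and 20 or more T-tailed reads in all was tested, among them 172 members. edgeR's quasi-likelihood test was run on T-tailed against other reads, so a change is a log2 odds and the abundance of the miRNA drops out. The 8 members not tested had 12 or fewer T-tailed reads in all.

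In Dicer KO the T-tailed share rose in 74 and fell in 5 of the 172 members (edgeR, Benjamini-Hochberg adjusted p below 0.05), where 31.8% of all 296 names were called, 30.1% higher and 1.69% lower. The median change of the members was a log2 odds of 0.42, against 0.41 over all names tested. The shares of the 2 knock-out libraries lay above both wild-type libraries in 111 of the 180 members and below in 16, where 52.7 and 10.8% of the names tested did so. Of the 124 names tested that were not members, 15 were called, all higher, or 12.1%, and their median was 0.32.

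The 3p arm held 45 of the rises and 1 of the falls among its 86 tested members, with a median of 0.58. The 5p arm held 28 rises and 4 falls among 83, with a median of 0.28. Among 3p members that a base other than U follows, 30 of 48 rose and 0 fell, with a median of 0.70. Of the corresponding 5p members 10 of 32 rose and 0 fell, with a median of 0.31. Where U follows, 5 of 18 members of the 3p arm rose, and 10 of 32 of the 5p arm rose and 3 fell. The difference between arms was not tested, since members are not replicates.

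**Figure D3:**
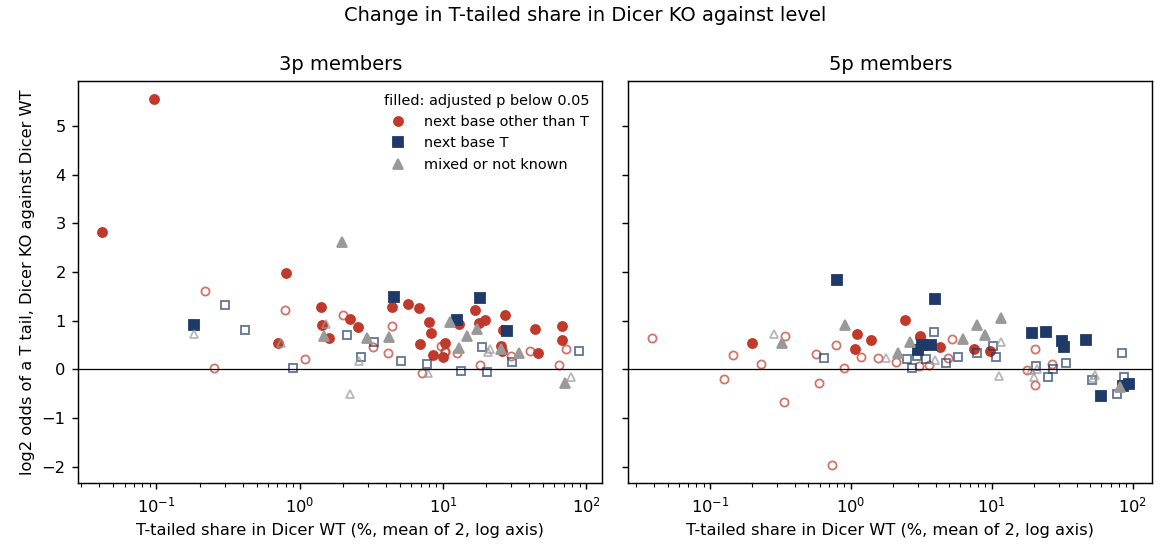
Each symbol is 1 tested member, placed by its mean T-tailed share in Dicer WT (percent, log axis) and its log2 odds of a T tail in Dicer KO against Dicer WT, with symbols for the following hairpin base and filled ones for adjusted p below 0.05. Rises fill the range below 50%, and the 5 filled falls lie at high shares.

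Change went with level, as the plot of change against wild-type share shows. The same Dicer WT libraries set both the level and the baseline of the change, so level and change are not independent. Below 1% in Dicer WT, 9 of 30 members rose, from 1 to 10% 36 of 69 did, and from 10 to 50% 27 of 55 did, with 0 falls in each range. Of the 18 members at 50% or more, 2 rose, miR-148b-3p and miR-488-3p, and 5 fell.

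The largest rise under the naming rule was that of miR-19b-3p, a member of the miR-17-92 cluster. It had 2.03 and 1.94% in Dicer WT against 11.8 and 9.73% in Dicer KO, with 2.03, 1.99, 2.16, 2.12, 3.17 and 2.72% in the DGCR8 line from wild type through heterozygote to knock-out. The 2 Dicer KO libraries stood apart from all 8 others. The log2 odds rose by 2.62 ± 0.24 (SE, n = 2 libraries per group, edgeR adjusted p = 4.6e-21).

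miR-9-3p, the star strand of the neural progenitor miRNA miR-9, had 0.775 and 0.837% in Dicer WT against 2.57 and 4.21% in Dicer KO. The DGCR8 line held 0.795 and 0.893% in wild type, 0.962 and 1.15% in heterozygotes and 0.805 and 0.840% in knock-outs, so both Dicer KO libraries were the highest. Its log2 odds rose by 1.99 ± 0.18 (edgeR adjusted p = 9.7e-21). The other arm, miR-9-5p, had 1.37 and 1.38% in Dicer WT against 2.30 and 1.86% in Dicer KO, with a rise of 0.61 ± 0.11 (edgeR adjusted p = 7.3e-07).

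miR-15b-5p, of the cell-cycle-linked miR-15 and miR-16 family, had 0.757 and 0.841% in Dicer WT against 2.29 and 3.63% in Dicer KO, and rose by 1.83 ± 0.30 on the log2 odds scale (edgeR adjusted p = 4.3e-08). miR-671-3p had 17.0 and 19.1% against 32.4 and 43.6% (1.47 ± 0.24, edgeR adjusted p = 5.3e-08). miR-135a-5p had 3.75 and 4.18% against 10.6 and 9.81% (1.45 ± 0.15, edgeR adjusted p = 1.2e-17). In none of these did the groups overlap, and none lost its call when any 1 library was left out.

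miR-29a-3p, known for targeting DNA methyltransferases and collagens, had 3.04 and 6% in Dicer WT against 12.3 and 11% in Dicer KO, a log2 odds of 1.49 ± 0.36 (edgeR adjusted p = 0.0003). Its shallowest library held 109 reads, and its 11% there has a Wilson 95% interval of 6.41 to 18.3%. miR-17-3p rose by 1.33 ± 0.30 and miR-30e-3p by 1.29 ± 0.38 (edgeR adjusted p = 0.0001 and 0.00317). Without the first Dicer KO library the adjusted p of edgeR was 0.0619 for miR-29a-3p and 0.0729 for miR-17-3p. Without the second, miR-30e-3p had a log2 odds of 0.60 and an adjusted p of 0.437, since its share of 5.12% there stood above the 2.12% of the first.

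Beyond the naming rule and named after their values were seen, miR-350-3p and miR-140-3p had larger log2 odds on few T-tailed reads. miR-350-3p had 0.191 and 0% in Dicer WT against 7.50 and 2.50% in Dicer KO (edgeR adjusted p = 2.9e-08). Its lowest library held 120 reads. miR-140-3p had 0.0442 and 0.0396% against 0.471 and 0.177% (edgeR adjusted p = 0.0351).

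The 5 members that fell were all abundant and mostly T-tailed. miR-186-5p had 61.0 and 59.1% in Dicer WT against 47.8 and 53.8% in Dicer KO, and its log2 odds fell by 0.55 ± 0.09 (edgeR adjusted p = 1.4e-08). The DGCR8 line lay between, with 56.2, 55.9, 56.2 and 55.2% in wild type and heterozygotes, but its knock-outs had 52.0 and 49.0%. The other 4 were miR-181c-5p, miR-26b-5p, miR-30c-5p and miR-92a-3p, with log2 odds of -0.35, -0.34, -0.30 and -0.29. For miR-92a-3p the shares were 71.3 and 69.8% against 64.8 and 67.6% (edgeR adjusted p = 0.0193).

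These 4 calls depended on single libraries, while the sign of the change did not. Without the first Dicer WT library the log2 odds was -0.25 for miR-181c-5p, -0.23 for miR-26b-5p, -0.25 for miR-30c-5p and -0.24 for miR-92a-3p, with edgeR adjusted p of 0.0643, 0.0538, 0.0642 and 0.152. Without the first Dicer KO library it was -0.15 for miR-181c-5p, -0.18 for miR-30c-5p and -0.20 for miR-92a-3p, with edgeR adjusted p of 0.312, 0.202 and 0.129, and miR-26b-5p remained called. miR-92a-3p had a log2 odds of 0.0051 when T-tailed reads were set against reads with no added base alone.

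**Figure D4:**
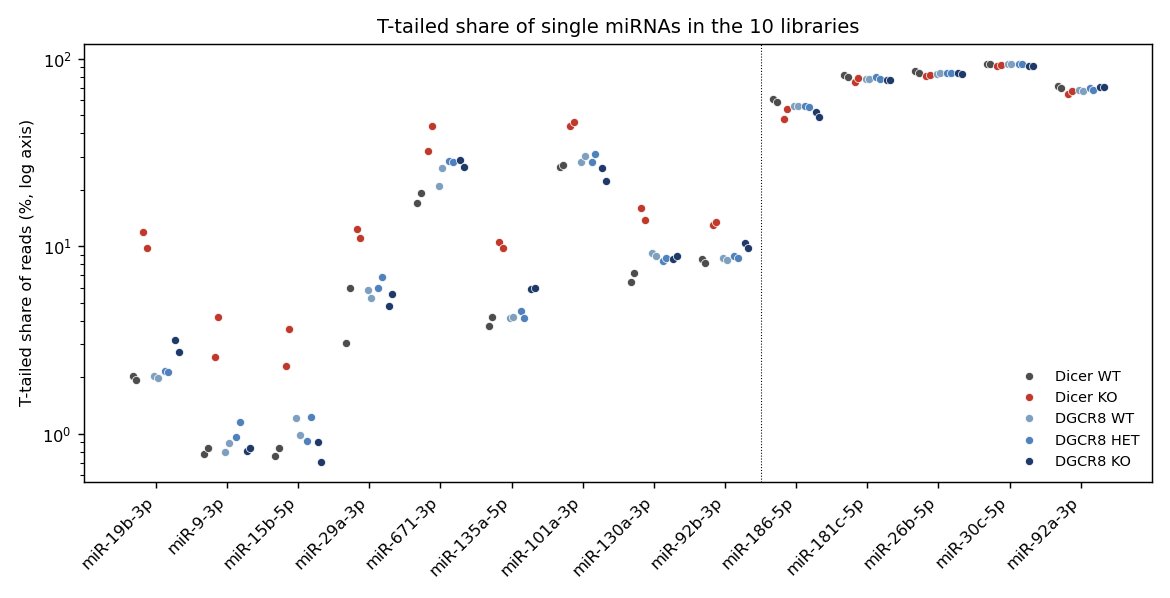
Each point is the T-tailed share in percent (log axis) of a named miRNA in 1 library, coloured by group, with members that rose in Dicer KO left of the dotted line and members that fell right of it. The Dicer KO points of miR-19b-3p, miR-9-3p and miR-135a-5p lie above all other groups.

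Set out by family, rises were common but not uniform, as the plot of single miRNAs illustrates. The counts of rises here and below stand beside 74 of all 172 tested members and 30.1% of all names tested. No family was tested against those shares. In the miR-17-92 cluster and its paralogs 9 of 14 members rose and 1 fell, miR-92a-3p. miR-17-5p went from a mean of 46.6% in Dicer WT to 57.3% in Dicer KO, miR-18a-3p from 16.7 to 31.7% and miR-25-3p from 2.57 to 4.57%. In the miR-30 family 4 of 7 rose, miR-30a-5p, miR-30b-5p, miR-30d-5p and miR-30e-3p, and miR-30c-5p fell. The log2 odds of miR-30a-5p was 0.54, and -0.042 after each library was centred on its median log odds. It was 0.23 without the first Dicer KO library. DESeq2, limma and the fit of the lines apart did not call miR-30a-5p.

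Among cortex miRNAs 5 of 9 tested members rose and 0 fell. The neuronal miR-124-3p went from a mean of 1.47 to 2.34% (edgeR adjusted p = 0.0487), miR-128-3p from 17.4 to 26.7% and miR-92b-3p from 8.31 to 13.3%. miR-124-5p had means of 20.9% in Dicer WT and 21.8% in Dicer KO and did not pass the test.

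Of the 9 let-7 guide strands, which accumulate as neural cells differentiate, 4 rose and 0 fell, let-7a-5p, let-7c-5p, let-7e-5p and let-7f-5p. Their log2 odds of 0.39, 0.51, 0.37 and 0.34 turned to -0.19, -0.083, -0.21 and -0.25 when each library was centred on its median log odds. Without the first Dicer KO library none of the 4 was called, with edgeR adjusted p from 0.127 to 0.518. The only member among the let-7 passenger strands was let-7d-3p, whose precursor belongs to the group described as needing an added U before Dicer. It had 0.347 and 0.260% in Dicer WT against 1.04 and 0.266% in Dicer KO, groups that overlapped (log2 odds 1.33 ± 0.71, edgeR adjusted p = 0.157).

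Members made without DGCR8 numbered 5. miR-320-3p went from a mean of 14.8 to 21.7% and miR-484 from 14.3 to 18%, and both rose, the latter with a log2 odds of 0.40 that was -0.19 after centring on the median log odds. miR-344-3p, miR-1983 and miR-6944-3p had log2 odds of 0.48, -0.02 and -0.15 and did not pass the test. Of 6 tested vessel and blood miRNAs, miR-126a-3p and miR-143-3p rose, with log2 odds of 0.30 and 0.42, the latter -0.16 after that centring. miR-451a, the erythroid miRNA that Argonaute 2 and not Dicer cuts, had 74.1 and 75.7% in Dicer WT against 75.1 and 73.3% in Dicer KO, groups that overlapped, and did not pass the test (log2 odds -0.03 ± 0.14, edgeR adjusted p = 0.919). None of the 3 choroid plexus members passed the test.

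The general shift bears on every direction in the Dicer line. The median member deviated from its own mean log odds by -0.32 and -0.20 in Dicer WT and by 0.18 and 0.16 in Dicer KO. With each library centred on that median deviation, 25 members were called higher and 24 lower. With each library centred on its median log odds, 14 were called higher and 33 lower. Changes are therefore given against the deposited reads of each miRNA itself, and a shift shared by a library's miRNAs is part of them.

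Over the 172 tested members the change in T-tailed share and that in abundance in Dicer KO had a Spearman rho of -0.187 and a Pearson r of -0.127, a weak relation and a description over miRNAs of the same libraries.

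The DGCR8 comparison asked the same where the step before Dicer is lost. In DGCR8 KO the T-tailed share rose in 11 and fell in 2 of 172 members, where 4.39% of all names were called, 3.72% higher and 0.676% lower (edgeR, Benjamini-Hochberg adjusted p below 0.05). The median log2 odds was 0.15. The 3p arm held 1 of the calls among 86 members and the 5p arm 11 among 83. Knock-out libraries lay above both wild types in 78 of the 180 members and below in 23, where 36.1 and 16.6% of names tested did so.

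The rises were small. miR-340-5p had 0.646 and 0.648% in DGCR8 WT against 1.01 and 1.03% in DGCR8 KO, a log2 odds of 0.66 ± 0.20 (edgeR adjusted p = 0.0252). miR-106b-5p had 3.11 and 3.09% against 4.27 and 4.73% (0.55 ± 0.14, edgeR adjusted p = 0.0121). miR-191-5p had 20.4 and 19.7% against 23.8 and 24.6% (0.34 ± 0.08, edgeR adjusted p = 0.0121). In each the knock-outs stood above both wild types.

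The other rises were miR-30d-5p, miR-744-5p, miR-125b-2-3p, miR-135a-5p, let-7b-5p, let-7c-5p, let-7g-5p and miR-484, with log2 odds from 0.31 to 0.58. The falls were miR-30c-5p, from 93.6 and 93.5% to 91.9 and 92.1%, and miR-186-5p, from 56.2 and 55.9% to 52.0 and 49.0% (edgeR adjusted p = 0.0205 and 0.0175). These calls did not hold across settings. No member was called without the first or the second DGCR8 WT library or without the second DGCR8 KO library, 2 were called without the first, DESeq2 called 2 and limma 1. With each library centred on its median log odds, 0 members were called higher and 8 lower, and with the median deviation 0 and 3.

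In DGCR8 HET no member was called by edgeR, with 0.0% of all names called, and DESeq2 and limma called none. Without adjustment, 8 of the 172 members and 10 of the 296 names had p below 0.05. The median log2 odds of the members was -0.03. Heterozygotes lay above both wild types in 27 members and below in 34, where 14.9 and 17.2% of names tested did so. miR-92a-3p, for one, had 68 and 67.4% in DGCR8 WT against 69.5 and 67.9% in DGCR8 HET.

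**Figure D5:**
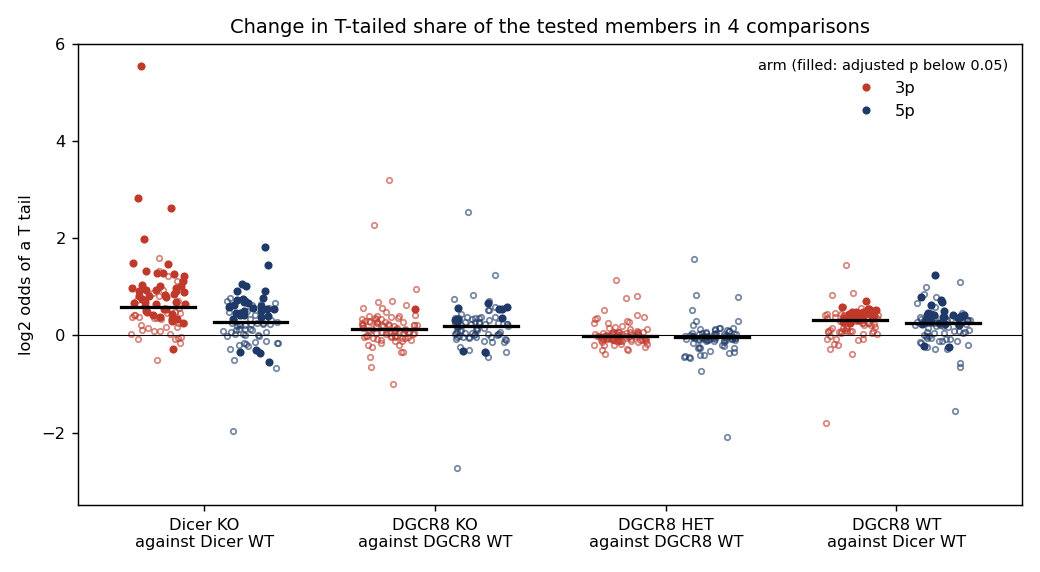
Each point is the log2 odds of a T tail of 1 tested member in 1 of 4 comparisons, split by arm, filled where the adjusted p is below 0.05, with a bar at the median. The bars of the Dicer comparison stand at 0.58 for 3p and 0.28 for 5p, and those of the DGCR8 heterozygote near 0.

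The wild types of the lines differed as well, as the plot of 4 comparisons shows. DGCR8 WT against Dicer WT had 49 members higher and 2 lower, where 18.6% of all names were called, 17.9% higher and 0.676% lower (edgeR, Benjamini-Hochberg adjusted p below 0.05) and a median log2 odds of 0.27. The libraries of DGCR8 WT lay above both of Dicer WT in 108 members, where 48.6% of names tested did so, and below in 14, where 8.11% did. The line and any run it was sequenced in cannot be told apart. The largest rise under the naming rule was that of miR-34c-5p, a miRNA of ciliated and choroid epithelium, with 2.17 and 1.39% in Dicer WT against 2.46 and 5.06% in DGCR8 WT (1.25 ± 0.34, edgeR adjusted p = 0.00326). For miR-34c-5p the log2 odds was 0.63 without the second DGCR8 WT library and 0.79 without the second Dicer WT library, with edgeR adjusted p of 0.440 and 0.195, and with the replicate block, DESeq2 or limma it was not called.

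miR-361-5p had 4.48 and 5.06% against 7.99 and 7.95%, miR-30b-5p 0.882 and 0.924% against 1.30 and 1.71%, and miR-301b-3p 3.59 and 4.77% against 6.26 and 7.02%. In each the DGCR8 WT libraries were the higher. Of the let-7 guide strands 7 of 9 were higher, where 49 of 172 members and 17.9% of all names were. The falls were miR-186-5p and miR-181c-5p. DESeq2 called 4 members and limma none. Leaving out the first Dicer WT library left 14 calls, and leaving out the first or second DGCR8 WT library left 12 or 10. Centring on the median log odds gave 3 members higher and 3 lower, and centring on the median deviation 1 higher and 10 lower.

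The knock-out effects of the lines were compared directly by an interaction contrast, which subtracts the effect in the Dicer line from that in the DGCR8 line. It was called in 35 members, 34 lower and 1 higher, where 14.5% of all names were called, 0.338% higher and 14.2% lower (edgeR, Benjamini-Hochberg adjusted p below 0.05). The 3p arm held 23 of the lower calls among 86 members and the 5p arm 11 among 83, and 18 were 3p members that a base other than U follows.

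miR-130a-3p illustrates the difference. It had 6.42 and 7.2% in Dicer WT against 16 and 13.8% in Dicer KO, but 9.22 and 8.88% in DGCR8 WT against 8.5 and 8.92% in DGCR8 KO. Its log2 odds was 1.26 in the first comparison and -0.06 in the second, and their difference was -1.33 ± 0.13 (edgeR adjusted p = 2.4e-18). miR-101a-3p, known in human cancer cells for targeting EZH2, had 26.6 and 27.3% against 44.0 and 45.9% in the Dicer line and 28.1 and 30.3% against 26.1 and 22.3% in the DGCR8 line. miR-181a-1-3p likewise had 3.89 and 4.92% against 9.92 and 10.2%, and 5.51 and 5.79% against 5.90 and 6.40%.

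Other members had like values in both comparisons. miR-30c-5p had a log2 odds of -0.30 in Dicer KO and -0.33 in DGCR8 KO, and their difference was -0.04 ± 0.13 (edgeR adjusted p = 0.956). For miR-30d-5p the values were 0.55 and 0.58, with a difference of 0.03 ± 0.26 (edgeR adjusted p = 0.968). Such a p does not show that the effects were alike. Without the first Dicer WT library 23 members differed between the lines, and without the first or the second DGCR8 WT library 23 or 22 did. Centred on the median log odds, 10 members differed upwards and 8 downwards, and centred on the median deviation 12 and 12.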

How the data were processed

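Small RNA libraries were made from 1000 ng of total RNA with a TruSeq small RNA kit, per the labels' protocols. The deposited table holds raw read counts, per the file headers, for 19414 entries in 10 libraries, each a miRNA's mature name joined to the bases added at its 3′ end. The submitters' processing notes name Bowtie and GRCm38, and the deposited table is named for IsomiRage. The Bowtie version, mismatch setting and miRNA annotation were not given in the sources used here. A base added by an enzyme and one read from the gene share a suffix. Columns of the DGCR8 line were assigned by line and index, since another number in their names differs from the labels. No sample column was left unused (0).

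Counts were summed per name in Python. T-tailed and other reads were fitted in R 4.3.3 with edgeR 4.0.16 (glmQLFit, glmQLFTest), with 1 coefficient per library and 1 T coefficient per group, 5 residual degrees of freedom and two-sided p adjusted by Benjamini-Hochberg over 296 names in each of 5 contrasts. SE is the log2 odds divided by the root of F. The 2 mice per group share a spread pooled over the 5 groups. edgeR also drew the spread of each name towards that of all names tested, with 230 prior against 5 residual degrees of freedom. The small adjusted p thus rest largely on a spread shared across names, not on the mice of 1 comparison. An exact permutation of 2 against 2 cannot go below p = 0.333, so single shares carry no test. The procedure was tested on simulated data. DESeq2 1.42.0 and limma 3.58.1 (pseudocount 0.5), other filters, centring, thinning, left-out libraries and a replicate block were alternatives.

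Named in the text are the 10 3p and 5 5p members highest in wild type, up to 8 rises and 8 falls per contrast with 10 or more T-tailed reads on average and no overlap, list members, and members at the read minimum. Members and lists were chosen with earlier results of these data known.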

Additional observations from a re-analysis of the deposited data

Results flagged for a closer look

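The effect of the knock-out on T-tailed shares differed between the DGCR8 and the Dicer line in 35 members, by the interaction contrast of edgeR. Given as the DGCR8 effect minus the Dicer effect on the log2 odds scale, it was higher for miR-92a-3p, at 0.50. That value for miR-92a-3p was 0.055 against reads with no added base, and the call was lost there, with limma, and without the first Dicer WT, the first DGCR8 WT or the second DGCR8 WT library (edgeR adjusted p of 0.0671, 0.0709 and 0.106 without these). It was lower for miR-15b-5p at -2.27, miR-19b-3p at -2.05, miR-9-3p at -2.03, miR-29a-3p at -1.61, miR-101a-3p at -1.47, miR-130a-3p at -1.33, miR-181a-1-3p at -1.15 and miR-671-3p at -1.13. Among the lower values the call was lost for miR-29a-3p without the first Dicer WT, Dicer KO or DGCR8 WT library, and for miR-671-3p without the second Dicer KO or DGCR8 WT library. With DESeq2, limma and either centring, miR-29a-3p and miR-671-3p also lost the call. Thinned to the smallest library, miR-671-3p and miR-19b-3p lost it too. The Dicer wild types stood lowest among the 10 libraries in their median deviation, at -0.32 and -0.20, and both DGCR8 wild types were near 0. The part of that wild-type difference in the interaction values was not tested.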

How the results depend on the processing

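The cause of each move was not tested, except that fewer members enter where the next hairpin base had to be other than T. Counts are of members called in each setting, and not all were called in the main fit. Of the 79 Dicer KO calls, 20 were shared after centring on the median log odds, 19 with the same sign. After centring on the median deviation 30 were shared. Of the 13 DGCR8 KO calls, 1 was shared with DESeq2, 0 with limma and 2 after each centring. Of the 35 interaction calls, 18 were shared with DESeq2, 10 with limma and 9 after centring on the median log odds. For Dicer KO, 79 members were called, 47 after centring on the median log odds, 49 after centring on the median deviation (a setting chosen after seeing the data), 41 with the next base not T, and 61 to 84 with 1 library left out. For DGCR8 KO, 13 became 2 with DESeq2, 1 with limma, 8 and 3 after the 2 centrings, 7 with no filter, 0 thinned to the smallest library, 5 with the next base not T, 34 with the lines fitted apart and 0 to 2 with 1 library left out. For DGCR8 HET, 0 became 1 with the lines fitted apart. For the wild types, 51 became 4 with DESeq2, 0 with limma, 6 and 11 centred, 8 thinned, 27 with the next base not T and 10 to 53 with 1 library left out. For the interaction, 35 became 18 with DESeq2, 11 with limma, 18 centred on the median log odds, 18 thinned, 19 with the next base not T and 22 to 43 with 1 library left out. The difference between arm medians, 4.13 percentage points, was 3.27 with suffix T alone, 5.56 against reads with no added base, 7.39 with the next base not T, 3.27 at a minimum of 10 reads and 2.84 at 1000, and 3.97 to 4.26 with 1 library left out.

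In Dicer KO against Dicer WT the sign of the log2 odds turned after centring on the median log odds for miR-652-3p (-0.50), miR-322-3p (-0.26), let-7a-5p (-0.19), let-7c-5p (-0.083), let-7e-5p (-0.21), let-7f-5p (-0.25), let-7i-5p (-0.49), miR-30a-5p (-0.042), miR-484 (-0.19), miR-143-3p (-0.16) and miR-204-5p (-0.50). After centring on the median deviation it turned for miR-322-3p (-0.097), let-7a-5p (-0.033), let-7e-5p (-0.055), let-7f-5p (-0.088), let-7i-5p (-0.34), miR-484 (-0.032) and miR-143-3p (-0.0054). Against reads with no added base it turned for miR-92a-3p (0.0051) and miR-30a-5p (-0.042).

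With the replicate number as a block 83, 16, 0, 45 and 38 members were called in the 5 contrasts in the order above. The numbers share no stated origin, so the main fit held no replicate block. Deviations of same-numbered libraries correlated at 0.212 in the Dicer line. They correlated at 0.0717 and -0.150 for DGCR8 wild type with knock-out and with heterozygote. With 2 libraries per group, such values cannot show whether same-numbered mice were paired. The knock-outs of the Dicer line are the shallowest libraries, with 983318 and 800623 miRNA reads, which limits shares below 1%.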
